A study of Arabidopsis thaliana with 72 samples.

Results

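The leaf response to 48 h of callose synthase induction was read from 6 of the 72 RNA sequencing libraries of an *Arabidopsis thaliana* series on plasmodesmal closure. These were the 3 icals3m estradiol and the 3 icals3m DMSO libraries collected 48 h after treatment, chosen by their labelled genotype, time and treatment and not by any measured value. The icals3m line carries the estradiol-inducible LexA::icals3m construct, in which a hyperactive variant of the callose synthase gene CALS3 is placed under the LexA system, and Col-0 is the wild type. The remaining libraries cover 12, 24 and 72 h, Col-0 and a line named PD-plug, and only the Col-0 48 h libraries served as background. All plants compared here were 5 weeks old, grew on MS medium plates at 22 °C with 10 h of light, and were treated with 0.01% Silwet L-77, a wetting agent, in all groups. The treated groups, in icals3m and Col-0 alike, received 20 µM β-estradiol 17-acetate, and the mock groups received 0.1% DMSO. At each time 2 leaves were taken from 4 plants, and the labels call the 3 samples of a group biological replicates. The cells in which the inducible system is active and the number of transformants behind the line are not given in the sources used here.

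Plasmodesmata are membrane-lined channels through plant cell walls that let small molecules, proteins and RNA pass between neighbouring cells. Callose, a glucan deposited in the wall around the channel neck by callose synthases and removed by glucanases, narrows the channel. In leaves the channels are known as part of the route that carries sucrose from photosynthesising mesophyll cells towards the phloem, and they are closed in immune responses. Whole leaves were sequenced, so fewer cells of a type and less RNA per cell cannot be told apart in any value below.

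The 6 icals3m libraries held between 40302476 and 54042377 deposited counts and the 6 Col-0 48 h libraries between 38441192 and 51330668. Levels are given as CPM, counts scaled to the library size, and 3 counts in a library corresponded to between 0.0555 and 0.0744 CPM in icals3m, a floor that covers counting error only. Across genes, log2 CPM of replicates correlated between 0.968 and 0.978 over 12 pairs. The Col-0 DMSO libraries 1 and 3 stood apart from the other Col-0 libraries, with scores of -56.1 and -61.7 on the second principal component against 2.90 to 34.7, while Col-0 DMSO replicate 2 sat with the estradiol libraries. Without both of them, which leaves 1 Col-0 DMSO library that is assumed to vary like the other groups, Col-0 had 1 gene past the threshold in place of 1417 (6.67% of the genes tested). None of the Col-0 calls of genes or list members described below remained without both. Beside the counts relative to Col-0, the count without both libraries is given. The leaf identity of the icals3m samples was borne out by 4 mesophyll markers, which summed to between 33393 and 46902 CPM, while 2 of 4 shoot meristem markers and 2 of 3 seed markers were at 0 in all 12 libraries.

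The question put to these samples was which leaf genes differ 48 h after induction of a callose synthase. Callose and the state of plasmodesmata were not measured in the data used here. Between estradiol and DMSO, 18.3% of the 21241 genes tested passed the threshold, an adjusted p under 0.05 by edgeR's quasi-likelihood test, adjusted after Benjamini and Hochberg over all genes. Of these, 1964 genes (9.25%) were higher and 1924 (9.06%) lower. Changes were mostly small, with a median absolute log2 fold change of 0.41 among called genes, and 221 genes (1.04%) were higher and 181 (0.852%) lower by at least 2-fold. Each icals3m effect was also set against the effect in Col-0, and 13.4% of genes passed that test. Both within the line and relative to Col-0, 8.86% of genes passed with the same sign, 816 (3.84%) higher and 1065 (5.01%) lower. Without both Col-0 DMSO libraries that stood apart, these counts were 346 and 356. The median log2 fold change of all genes was -0.01 in icals3m and 0.02 in Col-0. For every gene list below, the shares of all genes to read its counts against are 9.25% higher and 9.06% lower within icals3m, 6.26% and 7.11% relative to Col-0, and 3.84% and 5.01% in both tests.

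CALS3 (AT5G13000, TAIR10.1 chromosome 5, 4110171 to 4121489, minus strand) was measured first, as a check of the labels. With estradiol it stood at 3783, 4726 and 4115 CPM in icals3m, and with DMSO at 213, 201 and 219 CPM. Estradiol and DMSO libraries did not overlap, and the Col-0 48 h libraries lay between 95.3 and 109 CPM, below every icals3m library. The log2 fold change was 4.32 (SE 0.078, edgeR adjusted p 7.87e-48). Reads of the transgene and of the endogenous CALS3 are pooled in these values.

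The 12 highest and the 12 lowest changes were named among genes past the threshold both within icals3m and relative to Col-0. They had at least 1 CPM on average and no overlap between the 3 estradiol and the 3 DMSO libraries. The induced gene CALS3 is itself among the 12 highest. Non-overlap alone was common, since all 3 estradiol libraries lay above all 3 DMSO libraries in 16.1% of the genes tested and below them in 16.1%. Because the rule used both tests, the values of these 24 genes describe the ends of the response and are no further evidence for it. Without the Col-0 DMSO libraries that stood apart, 6 of the 12 highest and 3 of the 12 lowest no longer passed relative to Col-0. In the gene lists that follow, the rule named up to 3 higher and 3 lower members with the smallest p within icals3m, and any other name was chosen after its values were seen.

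Among the highest, calcium handling and metal handling genes stood beside CALS3. CML41 (AT3G50770), a calmodulin-like protein located at plasmodesmata that takes part in immune callose closure, was measured at 17.2, 43.0 and 46.8 CPM with estradiol and at 2.21, 2.45 and 0.941 CPM with DMSO. Every estradiol library was well above every DMSO library, and the log2 fold change was 4.24 (SE 0.48, edgeR adjusted p 4.07e-09). In Col-0 the gene went the other way, at 0.176, 0.230 and 0 CPM with estradiol and 3.53, 0.493 and 2.11 CPM with DMSO, a log2 fold change of -3.92 (edgeR adjusted p 0.000831). CAX3 (AT3G51860), a vacuolar proton and calcium exchanger, reached 23.0, 35.3 and 42.0 CPM with estradiol against 10.2, 5.40 and 4.66 CPM with DMSO. The groups did not overlap, the log2 fold change was 2.32 (SE 0.33, edgeR adjusted p 7.13e-07), and Col-0 had -1.73 (edgeR adjusted p 0.00126). NAS3 (AT1G09240), which makes the metal chelator nicotianamine, was low, at 4.39, 6.33 and 4.03 CPM with estradiol and at most 0.793 CPM with DMSO. Without the Col-0 DMSO libraries that stood apart, the effect relative to Col-0 was 6.12 for CML41 and 3.33 for CAX3, both still past the threshold, and 4.75 for NAS3 (edgeR adjusted p 0.0946).

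The remaining genes at the top were of mixed kind. AT5G39520, annotated as a hypothetical protein, had the highest log2 fold change, 5.83 (SE 1.2, edgeR adjusted p 0.000164), from 10.8, 8.55 and 3.54 CPM with estradiol and 0, 0.277 and 0.0991 CPM with DMSO. The DMSO values of this gene are near the floor, so the size of its fold change is loosely fixed. SWEET15, a sucrose exporter gene known from senescing leaves, stood at 4.02, 7.73 and 4.47 CPM with estradiol and between 0.892 and 0.956 CPM with DMSO. AT1G62510, a member of the lipid-transfer protein superfamily, was the most abundant of the group after CALS3, at 283, 315 and 348 CPM with estradiol and 61.8, 76.2 and 55.4 CPM with DMSO, with no overlap (log2 fold change 2.29). The others were the senescence regulator NAP (2.25, deposited as NAC029), the jasmonate genes CYP94C1 (2.23) and AOC1 (2.17), the thionin gene AT1G66100 (2.08) and AT3G14280 (3.31), annotated as an aminotransferase. CYP94C1 lost its call in 2 of 6 fits that left out a library, without estradiol replicate 1 or DMSO replicate 2. Without the Col-0 DMSO libraries that stood apart, AT5G39520 (4.94, edgeR adjusted p 0.341), SWEET15 (1.34, 0.525), NAP (1.64, 0.085), AT3G14280 (2.90, 0.0819) and AT1G66100 (2.29, 0.0715) no longer passed relative to Col-0. The SWEET15 call relative to Col-0 was also lost in 4 of 12 fits that left out 1 library.

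The 12 lowest genes included GER3, EXPA11, LNG1 and BEE1. GER3 (AT5G20630), which encodes a germin-like protein of the extracellular matrix, fell from 118, 140 and 131 CPM with DMSO to 19.8, 16.2 and 7.51 CPM with estradiol. The groups lay far apart, with a log2 fold change of -3.16 (SE 0.33, edgeR adjusted p 4.2e-10), while Col-0 held between 105 and 155 CPM in all 6 libraries. EXPA11 (AT1G20190), an expansin that loosens cell walls, stood at 16.9, 14.3 and 9.57 CPM with estradiol and 58.2, 59.3 and 48.7 CPM with DMSO, again without overlap (log2 fold change -2.03, SE 0.16, edgeR adjusted p 1.69e-13). LNG1 (AT5G15580), which promotes lengthwise cell elongation in leaves, was at 2.36, 2.14 and 1.01 CPM against 10.1, 12.4 and 7.28 CPM (-2.45). BEE1 (AT1G18400), a bHLH transcription factor gene induced by brassinosteroids, was at 1.07, 1.48 and 1.65 CPM against 6.12, 6.02 and 6.32 CPM (-2.13). In each of these genes the lowest DMSO library lay more than 2-fold above the highest estradiol library. The other lowest genes were AT2G10940 (-2.70), AT5G02890 (-2.29), AT4G01390 (-2.25), AT1G62520 (-2.14), PLP9 (-2.11), AT5G06270 (-2.05), the pectin lyase-like gene AT3G06770 (-2.00) and the ABC transporter gene ABCG13 (-1.98). AT2G10940 was not lower in the other deposited matrix, where its log2 fold change was 0.28 (edgeR adjusted p 0.968), and AT4G01390 lost its call in 4 of 6 fits that left out a library. Relative to Col-0, AT4G01390 (-1.70, edgeR adjusted p 0.437), PLP9 (-2.15, 0.132) and ABCG13 (-1.87, 0.077) did not pass without the Col-0 DMSO libraries that stood apart.

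**Figure D1:**
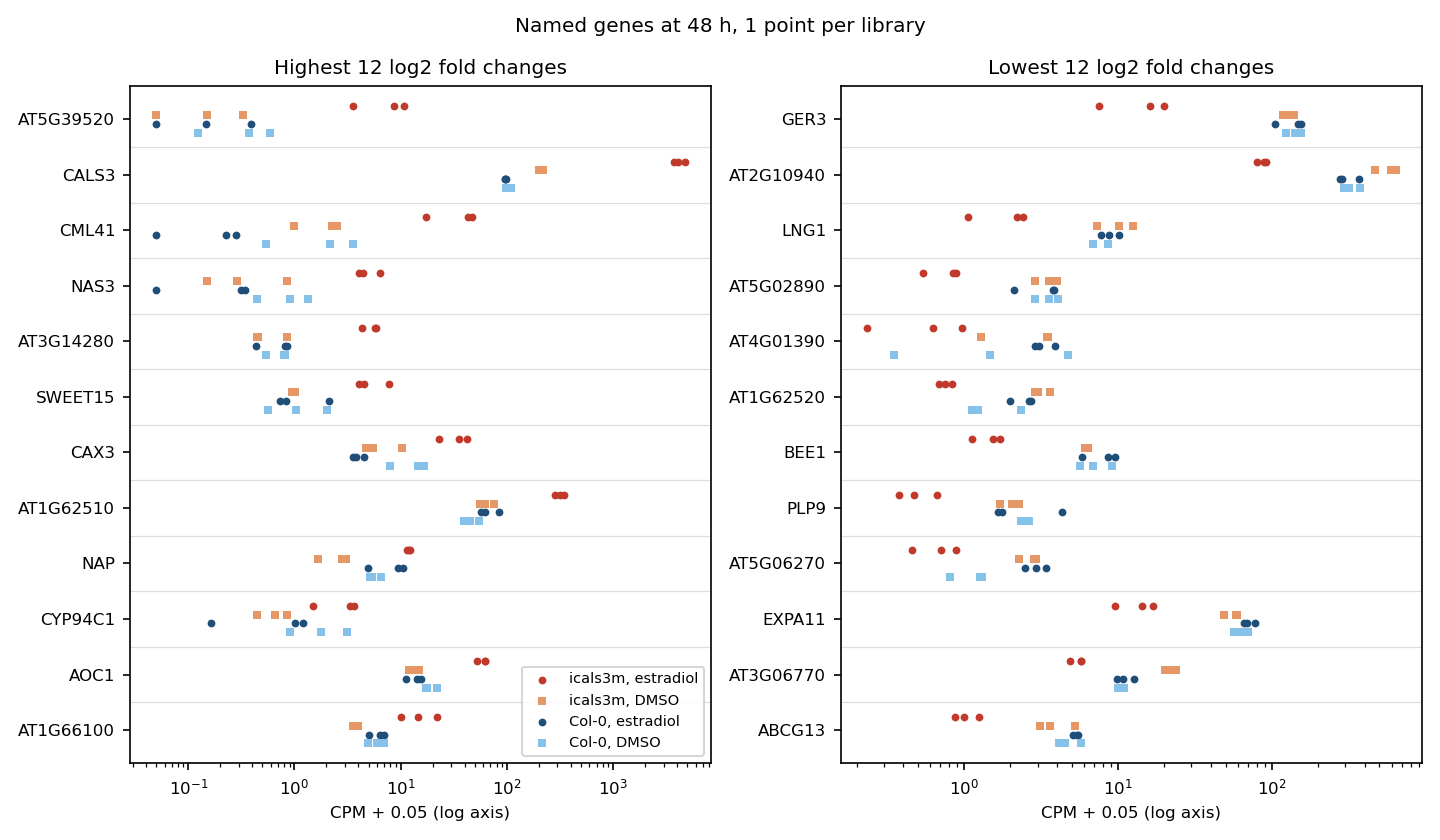
CPM plus 0.05 on a log axis for the 12 highest (left) and 12 lowest (right) named genes, with 1 point per 48 h library, circles for estradiol and squares for DMSO, red and orange for icals3m and blue for Col-0. The icals3m estradiol points lie apart from the icals3m DMSO points in every row, as the rule required, and for CML41 and CAX3 the Col-0 estradiol points lie below the Col-0 DMSO points on average.

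Promoters of 4 of the changed genes are shown because each holds the G-box CACGTG, a motif that bHLH factors such as MYC2 and many bZIP factors are known to bind. A G-box was found on either strand (the motif is its own reverse complement) in the 250 bases before the annotated start of 2 of the 12 highest and 1 of the 12 lowest named genes, and of 2 of the 12 jasmonate genes past the threshold. It was present in 7.31% of the 20984 promoters of tested genes read from the RefSeq annotation of TAIR10.1. Among members of other lists past the threshold, it was found in 3 of 11 photosystem and 2 of 13 Calvin cycle promoters. It was also in 2 of 12 senescence and 0 of 11 XTH and expansin promoters. The 12 highest include CALS3, whose window lies before the endogenous gene. Capitals mark the G-box, and each run is written 5′ to 3′ on the strand of the gene. The windows are chr5:15825567-15825816, minus strand, for AT5G39520, chr1:26121830-26122079, plus strand, for NAP, chr5:17099596-17099845, minus strand, for AOS, and chr1:6331148-6331397, plus strand, for BEE1. A match is a description of the letters and not evidence of binding.
AT5G39520: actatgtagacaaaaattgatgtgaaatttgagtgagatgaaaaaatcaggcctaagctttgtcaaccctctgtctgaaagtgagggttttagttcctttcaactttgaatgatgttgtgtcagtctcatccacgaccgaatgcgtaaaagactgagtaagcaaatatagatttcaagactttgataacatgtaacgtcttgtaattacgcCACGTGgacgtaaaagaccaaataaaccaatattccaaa
NAP: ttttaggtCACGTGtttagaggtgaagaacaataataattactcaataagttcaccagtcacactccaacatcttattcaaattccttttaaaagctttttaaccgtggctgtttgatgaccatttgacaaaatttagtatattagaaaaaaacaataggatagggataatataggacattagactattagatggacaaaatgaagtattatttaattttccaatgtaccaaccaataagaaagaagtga
AOS: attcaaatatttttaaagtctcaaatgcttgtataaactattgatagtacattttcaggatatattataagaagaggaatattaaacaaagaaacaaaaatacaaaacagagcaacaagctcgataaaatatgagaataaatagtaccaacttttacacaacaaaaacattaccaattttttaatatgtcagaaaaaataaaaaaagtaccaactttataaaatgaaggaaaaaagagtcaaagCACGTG
BEE1: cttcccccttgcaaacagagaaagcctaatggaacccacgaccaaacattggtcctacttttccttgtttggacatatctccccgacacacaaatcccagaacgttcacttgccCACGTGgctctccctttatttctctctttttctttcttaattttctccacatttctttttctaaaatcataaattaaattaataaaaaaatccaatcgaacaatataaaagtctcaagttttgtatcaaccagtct
The first base of the motif lay 39 bases before the start in AT5G39520, 242 in NAP, 6 in AOS and 136 in BEE1. AT5G39520, NAP and AOS were higher with estradiol and BEE1 was lower. The W-box TTGACC or TTGACT, known as the site of WRKY factors, was found on either strand in 2 of the 12 highest and 5 of the 12 lowest promoters and in 28.2% of all.

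Of the jasmonate pathway genes, 12 of 25 were higher and 0 lower. Jasmonate is made from plastid lipids through lipoxygenase, allene oxide synthase and allene oxide cyclase, and its conjugate releases MYC2 from the JAZ repressors, whose own genes MYC2 induces. These counts stand against 9.25% and 9.06% of all genes, and the median log2 fold change was 0.99 in icals3m and -0.33 in Col-0. AOS (AT5G42650, deposited as CYP74A), the allene oxide synthase, stood at 455, 386 and 299 CPM with estradiol and 134, 142 and 117 CPM with DMSO. The groups did not overlap, and the log2 fold change was 1.54 (SE 0.17, edgeR adjusted p 3.11e-09), against 0.11 in Col-0. MYC2 (AT1G32640), the main transcription factor of the pathway, was at 54.3, 56.9 and 57.3 CPM with estradiol and 22.6, 22.9 and 25.1 CPM with DMSO, a log2 fold change of 1.25 (SE 0.34, edgeR adjusted p 0.0058). Its level with estradiol lay within the range of Col-0 DMSO, 42.8 to 80.5 CPM.

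The repressor gene JAZ9 (AT1G70700, deposited as TIFY7) was at 172, 165 and 178 CPM with estradiol against 91.3, 80.4 and 87.0 CPM, with no overlap. JAZ10 (log2 fold change 2.53), JAZ2 (0.74), the conjugating enzyme gene JAR1 (0.35), CORI3 (0.89) and AOC2 (0.45) rose as well. AOC1, AOC2 and AOC3 are neighbouring near-identical copies, as are VSP1 and VSP2, so the split of reads within each group is uncertain. The storage protein genes VSP1 and VSP2 passed the threshold with very uneven replicates. VSP2 was at 479, 73.2 and 36.8 CPM with estradiol and 29.9, 5.26 and 10.1 CPM with DMSO, so that estradiol replicate 1 held most of the signal. The list's count fell to 7 without estradiol replicate 1 and also to 7 without DMSO replicate 2. In the other deposited matrix it was 6 in place of 12 within the line, and 7 in place of 13 relative to Col-0. Relative to Col-0, 13 members were higher and 0 lower, against 6.26% and 7.11% of all genes, and 7 were higher without the Col-0 DMSO libraries that stood apart. AOS, MYC2, JAZ9, CORI3, JAR1, AOC1 and CYP94C1 passed both tests. The CORI3 call within the line was lost without estradiol replicate 1 and in the other deposited matrix (edgeR adjusted p 0.0709). Relative to Col-0, CORI3 was at 1.02 (edgeR adjusted p 0.134) without the Col-0 DMSO libraries that stood apart.

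Of the leaf senescence and chlorophyll breakdown genes, 12 of 24 were higher and 0 lower. Senescing leaves dismantle chlorophyll in steps that run from magnesium removal (SGR1) through pheophytinase (PPH) to ring opening (PAO), under NAC transcription factors. Against these 50.0% stand 9.25% of all genes that were higher, the median log2 fold change was 0.64, and 10 members were higher in both tests, against 3.84% of all genes. NAP (AT1G69490), a NAC factor, was at 12.0, 11.4 and 12.1 CPM with estradiol and 1.61, 3.01 and 2.77 CPM with DMSO. Estradiol libraries were tightly grouped above all DMSO libraries, at a log2 fold change of 2.25 (SE 0.33, edgeR adjusted p 1.19e-06), while Col-0 held 8.21 CPM with estradiol and 5.64 CPM with DMSO on average. ORE1 (AT5G39610, deposited as ATNAC2), another NAC factor, was at 24.2, 25.1 and 26.5 CPM against 10.4, 9.92 and 11.3 CPM. NAC019 (1.2), NAC055 (1.22) and ORS1 (1.33, deposited as ATNAC3) completed the NAC genes past the threshold.

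Of the breakdown enzymes, PAO (AT3G44880) was at 183, 177 and 175 CPM with estradiol and 114, 106 and 105 CPM with DMSO, without overlap (log2 fold change 0.72, SE 0.069, edgeR adjusted p 1.16e-11). PPH (AT5G13800) was at 117, 122 and 113 CPM against 68.4, 70.6 and 65.5 CPM, also without overlap (0.78, SE 0.13). PPH did not pass in the other deposited matrix. SGR1 had a log2 fold change of 0.50, and the chlorophyll b reductase genes NYC1 (-0.34) and NOL (0.08) and the red chlorophyll catabolite reductase gene ACD2 (-0.04) did not pass. The cytosolic glutamine synthetase gene GLN1;1 (0.69), which reassigns nitrogen in ageing leaves, passed within the line only. SAG13 (-0.54) and SAG21 (0.68) did not pass. Relative to Col-0, 12 senescence members were higher and 0 lower, and 4 were higher without the Col-0 DMSO libraries that stood apart.

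**Figure D2:**
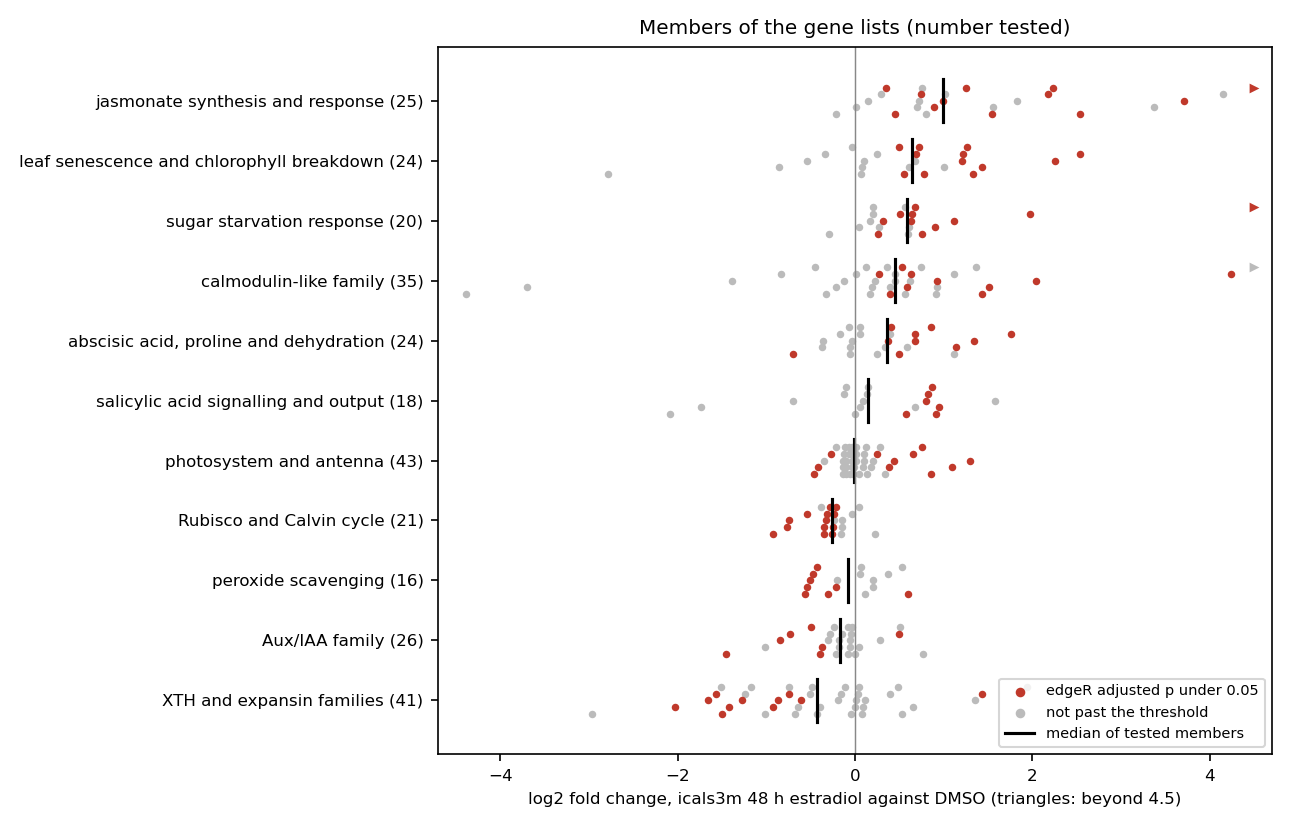
Log2 fold change of icals3m 48 h estradiol against DMSO for every tested member of 11 gene lists, red where the edgeR adjusted p was under 0.05 and grey otherwise, with a black line at each list's median and triangles for values beyond 4.5. Red points lie to the right of 0 in the jasmonate, senescence and starvation lists and to the left in the Calvin cycle list.

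Of 20 genes known to respond to low sugar, 11 were higher within the line and 0 lower, against 9.25% and 9.06% of all genes. They include enzymes of branched-chain amino acid breakdown and targets of the SnRK1 kinase, which is active when carbon is short. The median log2 fold change of the list was 0.58. IVD (AT3G45300), isovaleryl-CoA dehydrogenase, was at 87.0, 96.6 and 130 CPM with estradiol and 56.9, 56.3 and 54.7 CPM with DMSO, without overlap (0.90, SE 0.11, edgeR adjusted p 2.27e-08). BCAT2 (AT1G10070), a branched-chain aminotransferase, was at 7.32, 6.86 and 10.7 CPM against 1.86, 1.92 and 2.60 CPM, again without overlap (1.97, SE 0.42). DIN4 (0.64), SEN1 (1.12, deposited as STR15), KMD4 (0.75, deposited as SKIP20), TPS8 (0.68) and TPS10 (0.63) rose as well. DIN2 was at 1.97, 0.739 and 1.36 CPM with estradiol and at 0 in all 3 DMSO libraries. Relative to Col-0, 4 of the 20 were higher, and 1 was without the Col-0 DMSO libraries that stood apart. Of the 4, 3 passed in both tests, and BCAT2 did not pass relative to Col-0. In the other deposited matrix 1 member was higher relative to Col-0, and DIN4 did not pass that test (0.50, edgeR adjusted p 0.385). The effect of DIN4 relative to Col-0 was 0.64 without the Col-0 DMSO libraries that stood apart. The count within the line fell to 7 without DMSO replicate 2.

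Transporters of sugar split. SWEET12 (AT5G23660), which exports sucrose for phloem loading, fell from 104, 108 and 105 CPM with DMSO to 54.7, 51.8 and 64.0 CPM with estradiol, without overlap (-0.89, SE 0.15, edgeR adjusted p 6.95e-06). Its partner SWEET11 (-0.32) and the phloem sucrose carrier gene SUC2 (-0.23) were lower too, while SWEET15, SUC1 (0.74) and the hexose carrier gene STP13 (0.47) were higher. In all, 5 of 26 members rose and 3 fell. Within the line, the calls of SUC2 and SWEET11 were lost in the other deposited matrix, and that of SUC2 also in 3 of 6 fits that left out a library. Relative to Col-0, SWEET12 and SUC2 were lower, SWEET15, SUC1 and STP13 were higher, and SWEET11 did not pass. Of these calls relative to Col-0, only that of SUC1 was kept in the other deposited matrix. SUC2, SWEET11 and SWEET12 are 3 of the 5 phloem markers and the only 3 that passed as lower within the line. The other 2 had log2 fold changes above 0. The summed level of the 5 was 652 to 720 CPM with estradiol and 802 to 832 CPM with DMSO. The part of this in the result was not tested. Most starch genes did not pass. In starch synthesis 3 of 19 members rose and 1 fell, with SS2 (AT3G01180), a starch synthase, at 52.7, 51.0 and 48.1 CPM against 36.6, 31.1 and 30.9 CPM. In starch breakdown 3 of 22 rose and 2 fell, among them BAM1 (0.43) and BAM4 (0.56) upwards and BAM2 (-0.55) and the maltose exporter gene MEX1 (-0.32) downwards. The number that rose was 5 in each starch list without estradiol replicate 3, and the calls of BAM4 and MEX1 were lost in the other deposited matrix.

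Of the carbon fixation genes, 13 of 21 were lower and 0 higher. The Calvin cycle fixes carbon dioxide through Rubisco, whose small subunits are encoded in the nucleus. Against these 61.9% stand 9.06% of all genes that were lower, and the median log2 fold change was -0.26 in icals3m and 0.09 in Col-0. RBCS1A (AT1G67090) stood at 11098, 10477 and 10362 CPM with estradiol and 15839, 14270 and 16330 CPM with DMSO. The groups were clearly apart, with a log2 fold change of -0.54 (SE 0.060, edgeR adjusted p 6.24e-10), and Col-0 held 15959 CPM with estradiol and 14696 CPM with DMSO on average. RBCS2B (-0.93), RBCS3B (-0.77) and RBCS1B (-0.74) fell more, but these 3 are near-identical neighbours whose reads may have been split between them. RCA (AT2G39730), the activase of Rubisco, was at 5867, 6213 and 6711 CPM against 7435, 7750 and 8305 CPM, without overlap (-0.32, SE 0.078). Phosphoglycerate kinase PGK1 (-0.35), CP12-2 (-0.35) and sedoheptulose bisphosphatase SBPASE (-0.24) fell by less. Relative to Col-0, 14 members were lower and 0 higher, 12 of them in both tests, and 4 were lower without the Col-0 DMSO libraries that stood apart. In the other deposited matrix 6 members were lower within the line, and RBCS1A did not pass. RBCS1A and RCA are also 2 of the 4 mesophyll markers, which summed to 33393 to 37152 CPM with estradiol and 42586 to 46902 CPM with DMSO. Of these markers 3 passed as lower and 1 had a log2 fold change above 0.

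The light-harvesting and photosystem genes did not follow as a group. Of 43 members tested, 8 rose and 3 fell, with a median log2 fold change of -0.01. In Col-0, 31 of them rose and 1 fell with estradiol, against 2.48% and 4.19% of all genes, with a median of 0.34. The difference between the lines was accordingly lower in 24 members and higher in 0. This count fell to 12 without icals3m estradiol replicate 3 and to 2 without the Col-0 DMSO libraries that stood apart. LHCB1.4 (AT2G34430, deposited as LHB1B1), an antenna protein of photosystem II, was at 1159, 1144 and 689 CPM with estradiol and 428, 428 and 365 CPM with DMSO, a rise of 1.29 (SE 0.26) that was matched by 1.38 in Col-0. The photosystem I antenna gene LHCA6 (-0.46) and PSBS (-0.27), needed for heat dissipation, fell. PSBQ1 (-0.42), of the oxygen-evolving complex, fell too, but had 0.55 (edgeR adjusted p 0.497) in the other deposited matrix. Antenna genes of the LHCB1 and LHCB2 groups are near-identical and their separate values are uncertain. The number of members that rose ranged from 4 to 16 when single icals3m libraries were left out, with 16 without estradiol replicate 3 and 4 without estradiol replicate 1 or 2 or DMSO replicate 1, and 5 without DMSO replicate 3. The number that fell went to 6 without estradiol replicate 1.

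**Figure D3:**
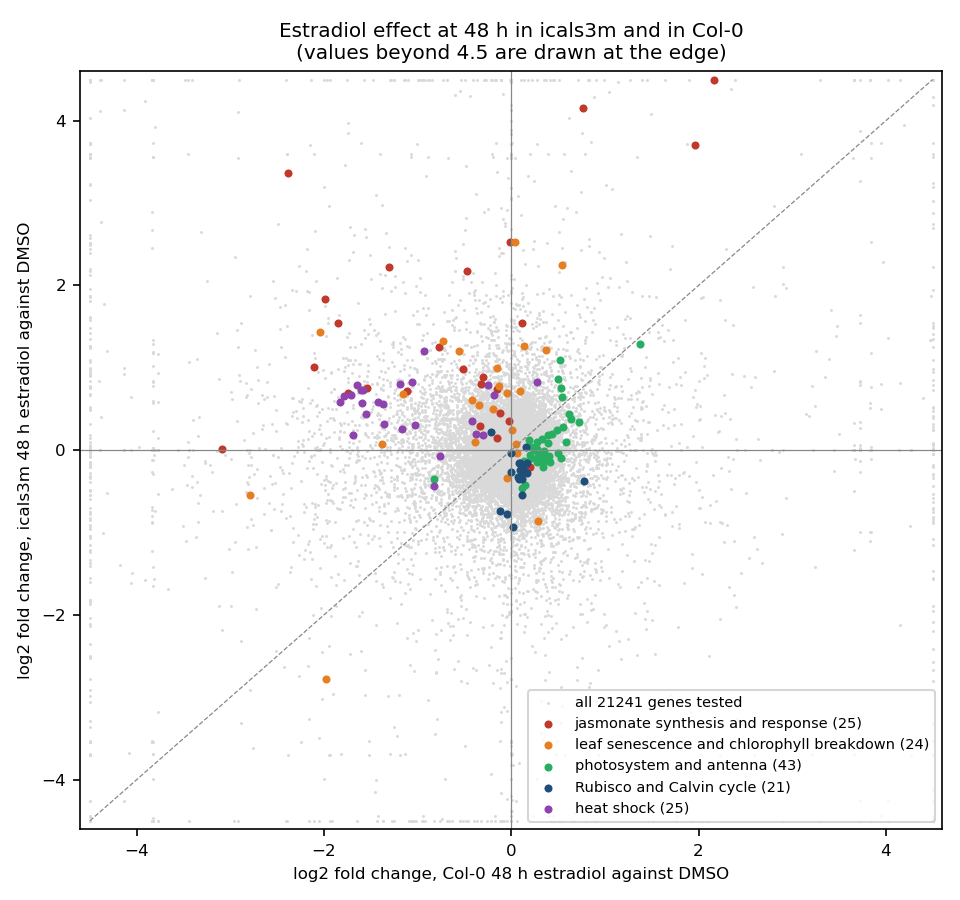
Log2 fold change at 48 h in icals3m (vertical) against that in Col-0 (horizontal), which share no library, for all 21241 genes tested in grey and the members of 5 lists in colour, with the dashed line marking equal effects and values beyond 4.5 drawn at the edge. Calvin cycle members lie below 0 in icals3m near 0 in Col-0, photosystem members lie right of 0 and near 0 in icals3m, and most heat shock members lie left of 0.

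Of 16 tested members of the peroxide scavenging list, which holds enzymes that remove peroxide or superoxide, 7 fell, 1 rose and 8 did not pass. The median log2 fold change was -0.07, with 8 values above 0 and 8 below. PRXQ (AT3G26060), a thylakoid peroxiredoxin, was at 329, 322 and 330 CPM with estradiol and 498, 449 and 510 CPM with DMSO, and the 2-Cys peroxiredoxin gene 2CPA (AT3G11630, deposited as BAS1) at 652, 621 and 605 CPM against 888, 909 and 940 CPM. Neither gene overlapped between the groups, at log2 fold changes of -0.57 (SE 0.071) and -0.54 (SE 0.053). The second 2-Cys gene 2CPB (-0.47), PRXIIE (-0.31), thylakoid ascorbate peroxidase (-0.22) and the superoxide dismutase genes CSD2 (-0.43) and FSD1 (-0.51) fell too. The leaf catalase gene CAT2 (AT4G35090) rose by 0.60, with estradiol libraries at 556, 814 and 1121 CPM that overlapped the DMSO libraries at 558, 477 and 609 CPM. The call for CAT2 was lost without estradiol replicate 3 or DMSO replicate 2. The number that fell was 4 without estradiol replicate 3 or DMSO replicate 3. In the other deposited matrix 3 fell, and PRXQ (-0.66, edgeR adjusted p 0.334) and CAT2 did not pass.

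Some genes of wall loosening and of the Aux/IAA family were lower. Expansins and xyloglucan endotransglucosylases (XTH) loosen and remodel the wall of growing cells. In the XTH and expansin families, 10 of 41 members tested fell, 1 rose and 30 did not pass, with a median log2 fold change of -0.43. The number that fell was 7 to 9 when single libraries were left out and 6 in the other deposited matrix. Beside EXPA11, EXPA3 (AT2G37640) was at 5.27, 4.49 and 4.26 CPM with estradiol and 16.8, 13.7 and 11.1 CPM with DMSO, and EXPA6 (AT2G28950) at 12.9, 15.4 and 8.58 CPM against 32.4, 30.4 and 26.1 CPM. Both were without overlap, at -1.57 (SE 0.18) and -1.27 (SE 0.16), and both fell relative to Col-0. EXPA1 (-0.92), EXPA5 (-0.87), EXPA10 (-1.66), XTH7 (-1.50) and XTH9 (-1.42) were also lower. EXPA10 also fell in Col-0 (-1.37), and its effect did not pass relative to Col-0. The 1 member that rose was XTH24 (AT4G30270), at 23.9, 51.6 and 87.2 CPM with estradiol and 21.1, 22.0 and 17.2 CPM with DMSO, and it fell by 2.04 in Col-0. Its call was lost without estradiol replicate 3.

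Aux/IAA genes encode short-lived repressors of auxin response that are themselves auxin-induced in many cases. Of 26 tested, 6 fell, 1 rose and 19 did not pass. IAA8 (AT2G22670) was at 101, 83.9 and 83.8 CPM with estradiol and 148, 175 and 161 CPM with DMSO, without overlap (-0.85, SE 0.080, edgeR adjusted p 6.16e-12). In the other deposited matrix IAA8 was at -0.37 within icals3m (edgeR adjusted p 0.767) and did not pass relative to Col-0. IAA9 (-0.39), IAA16 (-0.50), IAA3 (-0.73), IAA7 (-0.37) and IAA19 (-1.46) fell too, and IAA26 (0.50) rose. Relative to Col-0, 10 were lower and 1 higher, with 3 lower without the Col-0 DMSO libraries that stood apart. That count was 6 without Col-0 estradiol replicate 3, Col-0 DMSO replicate 1 or icals3m estradiol replicate 3. In the SAUR family, small auxin-induced proteins, 6 of 60 (10.0%) rose and 5 (8.33%) fell, with a median of 0.05. These shares were near the 9.25% and 9.06% of all genes. Between 2 and 4 rose when single libraries were left out (2 without estradiol replicate 2 or DMSO replicate 3, 3 without DMSO replicate 1 or 2), and 3 fell without estradiol replicate 3.

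Calmodulin-like genes beyond CML41 were also among those higher. These proteins bind calcium and relay calcium signals. Of 35 tested, 10 rose and 0 fell, against 9.25% and 9.06% of all genes, with a median of 0.45. CML35 (AT2G41410) was at 119, 134 and 134 CPM with estradiol and 56.6, 53.7 and 33.1 CPM with DMSO, and CML47 (AT3G47480) at 9.64, 12.2 and 12.8 CPM against 4.1, 4.63 and 3.37 CPM. In neither gene did the groups overlap, and the log2 fold changes were 1.43 (SE 0.17) and 1.51 (SE 0.24). CML44 (2.04), CML36 (0.92), CML49 (0.63), CML9 (0.58), CML16 (0.53), CML50 (0.39) and CML20 (0.27) made up the rest. Relative to Col-0, 9 were higher and 0 lower, 5 of them in both tests, and 3 were higher without the Col-0 DMSO libraries that stood apart.

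Immune signalling genes moved in part. ADR1, ADR1-L1 and ADR1-L2 are helper receptors that act with the lipase-like proteins EDS1 and PAD4 in immunity, upstream of salicylic acid. Of 18 members of the signalling and output list, 6 rose and 0 fell, at a median of 0.15. ADR1-L2 (AT5G04720) was at 46.1, 47.8 and 47.6 CPM with estradiol and 27.2, 23.4 and 22.8 CPM with DMSO, and ADR1-L1 (AT4G33300) at 73.2, 69.0 and 69.3 CPM against 41.2, 40.8 and 39.8 CPM. Both genes were tightly grouped and did not overlap, at log2 fold changes of 0.95 (SE 0.13) and 0.80 (SE 0.11). ADR1 (0.91), PAD4 (0.82), NPR3 (0.57) and WRKY70 (0.87) rose as well. The output genes PR1 (0.68), PR5 (-0.70) and BG2 (-2.09) did not pass. PR1 was at 0, 0.106 and 1.4 CPM with estradiol and 0.403, 0.158 and 0.396 CPM with DMSO, and BG2 at 0.437, 1.16 and 0.741 CPM against 1.31, 1.19 and 7.38 CPM, so neither showed a high level. Relative to Col-0, 5 signalling members were higher and 0 lower, and 4 were without the Col-0 DMSO libraries that stood apart. Of the 12 genes of salicylic and pipecolic acid synthesis, CBP60G (0.98) and ICS1 (0.55) rose. The ICS1 call was lost without DMSO replicate 2 and in the other deposited matrix (edgeR adjusted p 0.266). In the WRKY family, 5 of 58 (8.62%) rose, near the 9.25% of all genes, and 2 fell. The number that rose was 3 without DMSO replicate 2, and 1 fell without estradiol replicate 2 or 3 or DMSO replicate 1 or 3. WRKY33 was at 1.03 in icals3m and -1.14 in Col-0.

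Some other components of plasmodesmata passed, most with small changes. Of the 11 callose synthases tested, CALS2 (0.18) and CALS9 (0.17) rose beside CALS3, and CALS6 (-0.46) fell. With the induced CALS3 counted, 27.3% were higher and 9.09% lower, against 9.25% and 9.06% of all genes. Of 6 fits with 1 library removed, 2 lost the call for CALS2, 3 that for CALS9 and 4 that for CALS6, and none of them passed relative to Col-0. Among 16 plasmodesmal proteins tested, CML41 rose and 3 (18.8%) fell, against 9.06% of all genes. PDLP2 (AT1G04520, deposited as CRRSP3), a plasmodesmata-located receptor-like protein, was at 1.94, 2.01 and 2.14 CPM with estradiol and 4.38, 4.1 and 4.48 CPM with DMSO, without overlap (-1.09, SE 0.22). PDLP3 (-0.61, deposited as CRRSP11) and AT3G13560 (-0.92), listed as the glucanase PDBG1, fell too. Relative to Col-0, 1 plasmodesmal member was higher and 2 were lower. These 2 were PDLP3 and AT3G13560, and PDLP2 did not pass. In the other deposited matrix PDLP3 had -0.47 relative to Col-0 (edgeR adjusted p 0.126) and did not pass. Its effect relative to Col-0 was -0.53 without the Col-0 DMSO libraries that stood apart. In Col-0 itself, 1 plasmodesmal member was lower and 0 were higher.

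Abscisic acid and dehydration genes were mixed. Of 24 tested, 9 rose and 1 fell, with a median of 0.36. RD26 (AT4G27410, deposited as NAC072), a NAC factor of the dehydration response, was at 38.2, 46.1 and 39.2 CPM with estradiol and 13.2, 12.7 and 10.6 CPM with DMSO, without overlap (1.76, SE 0.32, edgeR adjusted p 4.67e-05). Its level with DMSO in icals3m was below that of Col-0, which held 34.3 CPM with DMSO and 36.3 CPM with estradiol on average. The phosphatase genes HAI1 (1.34) and HAB1 (0.67), the abscisic aldehyde oxidase gene AAO3 (0.67), the protease gene ERD1 (0.86, deposited as CLPD) and P5CS2 (0.49) of proline synthesis rose. NCED3 (-0.17), the rate-limiting step of abscisic acid synthesis, and RAB18 (-0.04) did not pass, and RD22 (-0.70) fell. Relative to Col-0, 6 members were higher and 4 lower, and without the Col-0 DMSO libraries that stood apart these were 2 and 1.

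Anthocyanin and heat shock genes seldom passed within the line. In anthocyanin synthesis, 1 of 22 rose, the repressor MYBL2 (AT1G71030), at 134, 127 and 122 CPM with estradiol and 62.2, 47.0 and 53.6 CPM with DMSO. These levels did not overlap, and both were below the Col-0 means of 209 and 184 CPM. Among heat shock genes, 3 of 25 rose, EGY3 (1.2), HSFB2A (0.67) and FKBP62 (0.35), the last of which had -0.31 in the other deposited matrix. The count was 1 without estradiol replicate 3 or DMSO replicate 3, each of which ended the calls of HSFB2A and FKBP62. FKBP62 lost its call in 4 of 6 such fits, under the replicate block and with only the libraries compared. The median of that list was 0.58 in icals3m and -1.19 in Col-0, and 8 members were higher relative to Col-0, a count that ranged from 2 (without Col-0 DMSO replicate 3 or icals3m estradiol replicate 3) to 14 (without Col-0 DMSO replicate 2 or icals3m estradiol replicate 1) when single libraries were left out. It was 1 without the Col-0 DMSO libraries that stood apart and 2 in the other deposited matrix. In nitrate and ammonium assimilation, 3 of 15 (20.0%) rose and 4 (26.7%) fell, against 9.25% and 9.06% of all genes, with nitrite reductase NIR1 (AT2G15620) at 160, 183 and 205 CPM with estradiol and 281, 359 and 374 CPM with DMSO (-0.89, SE 0.11, edgeR adjusted p 2.33e-08). Of 17 clock genes 4 (23.5%) rose and 2 (11.8%) fell, with CCA1 at 1.06 and CHE at -1.03 (AT5G08330, deposited as TCP21). The number that rose was 1 without DMSO replicate 2, 2 without estradiol replicate 2 and 1 in the other deposited matrix, where CCA1 did not pass (edgeR adjusted p 0.292), and 4 fell without estradiol replicate 1. The counts were 1 up and 2 down of 13 in indole glucosinolate and camalexin synthesis, 0 up and 1 down of 15 in aliphatic glucosinolate synthesis, 1 up and 2 down of 11 in myo-inositol and galactinol metabolism and 1 up and 1 down of 13 in plasma membrane aquaporins. Tau and phi glutathione transferases had 1 up and 2 down of 36 in icals3m and 0 up and 14 down in Col-0. Calls within icals3m lost in the other deposited matrix also included those of GLN1;1, PSBS, AAO3, P5CS2, CALS2, CALS6 and AT4G01390 (-2.76, edgeR adjusted p 0.126). Not every such loss is named. In that matrix the members that rose numbered 9 in place of 12 in the senescence list and 7 in place of 11 in the low sugar list. The calmodulin-like genes that rose were 6 in place of 10, and the Aux/IAA genes that fell were 3 in place of 6.

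The 48 h response was set against 24 and 72 h in the same line, comparisons that share the 48 h libraries with the result above. The Col-0 effect was not subtracted in these comparisons. Changes that also occur without the construct are therefore not separated out. Of the genes tested, 9.46% differed from 24 h and 10.2% from 72 h. The effect was higher at 48 than at 24 h in 1030 genes (4.85%) and lower in 979 (4.61%). It was higher at 72 than at 48 h in 1140 genes (5.37%) and lower in 1030 (4.85%). The genes of the plot by time were chosen after their values were seen. CML41 had log2 fold changes of 0.47, 4.24 and 2.47 at 24, 48 and 72 h, and GER3 had -0.07, -3.16 and -3.00. In both the change from 24 to 48 h passed the threshold (edgeR adjusted p 4.41e-05 and 0.000627) and the change from 48 to 72 h did not (edgeR adjusted p 0.0527 and 0.893). MYC2 and JAZ9 followed another course, at 1.19, 1.25 and -0.52 for MYC2 and 0.87, 0.99 and -0.41 for JAZ9. Here the later change passed (edgeR adjusted p 0.00931 and 0.0119) and the earlier did not. In the jasmonate list, 6 of 25 members were lower at 72 than at 48 h and 0 higher, and in the senescence list 5 of 24 were lower and 0 higher. In the Calvin cycle list, 15 of 21 members were lower at 48 than at 24 h, and 1 was lower and 1 higher at 72 than at 48 h. RBCS1A had 0.02, -0.54 and -0.43. In the photosystem list the step came later, with 7 of 43 lower at 48 than at 24 h and 28 lower at 72 than at 48 h. Heat shock genes had a median of -1.93 at 24 h, 0.58 at 48 h and -0.01 at 72 h, and 17 of 25 were higher at 48 than at 24 h. In Col-0, with all its 48 h libraries, the median of this list was -1.19 at 48 h. Whether its course in icals3m depends on the construct was not tested.

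**Figure D4:**
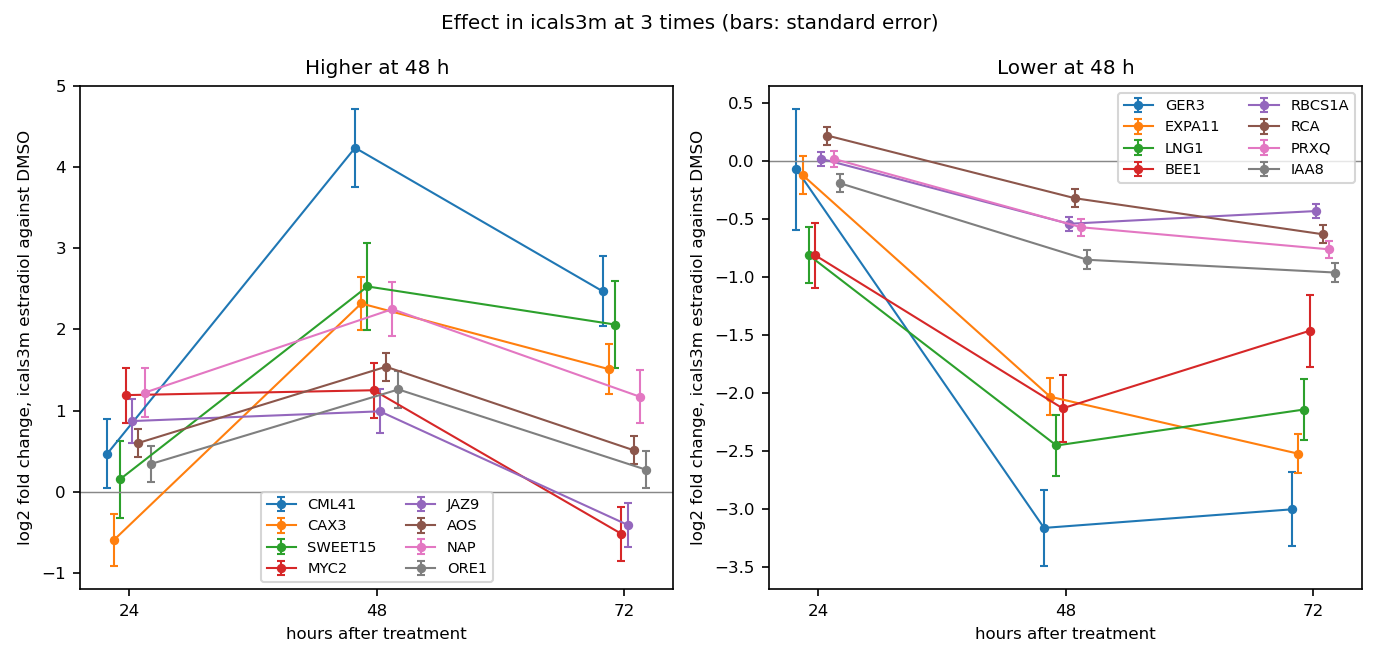
Log2 fold change in icals3m, estradiol against DMSO, at 24, 48 and 72 h for 8 genes higher (left) and 8 lower (right) at 48 h, with bars for the standard error and points shifted sideways for legibility. MYC2 and JAZ9 are above 0 at 24 and 48 h and below 0 at 72 h, while GER3, EXPA11 and LNG1 stay low from 48 to 72 h.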

How the data were processed

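RNA libraries of leaves were sequenced on an Illumina instrument. The values used are estimated counts per gene and library, deposited by the authors without scaling, and were rounded to whole numbers. The submitters' processing notes name the TAIR10 genome, FastQC 0.11.8, Trim Galore 0.5.0, cutadapt 1.7, HISAT2 2.1.0, STAR 2.5, SAMtools 1.4.1 and StringTie 1.3.3, with no role or order. The counting program, its handling of strand and its filters are not given in the sources used here. A second deposited matrix of the same libraries, named for STAR, held about 2-fold lower totals and served as an alternative.

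All 72 libraries were fitted with edgeR 4.0.16 (limma 3.58.1, R 4.3.3) as 24 group means with 48 residual degrees of freedom, TMM scaling and edgeR's expression filter (minimum count 10, minimum total 15), which kept 21241 of 33602 genes. The quasi-likelihood test was used with Benjamini-Hochberg adjustment over all genes tested and a threshold of 0.05. CPM were computed on TMM-scaled library sizes. Comparisons were icals3m estradiol against DMSO at 48 h, that effect minus the Col-0 effect, the Col-0 effect, and the icals3m effect at 48 h against 24 and 72 h. The labels call the 3 samples of a group biological replicates and do not say whether these came from separate plants. The p-values measure the spread between samples within groups, estimated over all 24 groups and not from the compared samples alone. With only the libraries compared in the fit, 3001 genes passed within icals3m in place of 3888. No pair of replicates agreed within sampling noise (chi-square per degree of freedom 13.6 to 46.6 over 12 pairs).

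Named genes were CALS3 and the 12 highest and 12 lowest log2 fold changes among genes past both 48 h tests with the same sign. These had a mean of at least 1 CPM and no overlap between icals3m groups, and CALS3 was itself among the 12 highest. Up to 3 members in each direction with the smallest p in each gene list were named too. The members and lists were chosen with earlier results of these data known. Promoters are the 250 bases before the annotated gene start in RefSeq TAIR10.1.

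On simulated data for 19377 genes, edgeR recovered 69.5% of 200 genes changed 2-fold within icals3m with 8 false calls, and 54.5% relative to Col-0 with 6. The simulation held the icals3m and Col-0 48 h groups only, with a spread set by expression level alone. It had no Col-0 effect and no libraries that stood apart, so the rates of the fit used here may differ. Alternatives were the second matrix, DESeq2 1.42.0, DESeq2's size factors, no filter, the replicate number as a block, only the libraries compared, and each library left out. Added after seeing the data were counts divided by 4 and rounded up, since small counts were often multiples of 4 (the value 4 filled 40727 cells, 3 filled 8585 and 5 filled 10399), and leaving out Col-0 DMSO replicates 1 and 3 together.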

Additional observations from a re-analysis of the deposited data

Results flagged for a closer look

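The icals3m effect at 48 h differed from the Col-0 effect in 2840 genes, from the icals3m effect at 24 h in 2009 genes and from that at 72 h in 2170 genes, by edgeR's test of the difference. Among the genes named by the rule, 11 passed the threshold in opposite directions in the lines, and for them the log2 difference between the icals3m and Col-0 effects follows. It was 8.16 for CML41, 4.05 for CAX3, 3.47 for XTH24, 2.17 for WRKY33, 2.13 for EGY3, 2.12 for CBP60G, 1.33 for SUC1 and 0.77 for FKBP62, which were higher in icals3m and lower in Col-0. It was -3.47 for AT5G06270, -0.57 for PIP2-6 and -0.56 for MEX1, which were lower in icals3m and higher in Col-0. The PIP2-6 call within icals3m was lost in the other deposited matrix and without icals3m estradiol replicate 3 or DMSO replicate 2. Without Col-0 DMSO replicates 1 and 3, 0 of these 11 genes passed the threshold in Col-0, so that the opposite calls rest on those libraries. The difference of CML41 was then 6.12 (edgeR adjusted p 0.00236), and those of XTH24 (2.08, edgeR adjusted p 0.0742), MEX1 (-0.45, edgeR adjusted p 0.051) and FKBP62 (0.38, edgeR adjusted p 0.347) no longer passed.

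A sequence named mCherry, which is listed among the genes, had 16 counts in icals3m estradiol replicate 1, 0 in the icals3m DMSO libraries and at most 5 in any of the 24 Col-0 libraries. The 16 counts are those of that library alone, and the other icals3m estradiol libraries are not reported here.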

How the results depend on the processing

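With the second deposited matrix, fewer genes passed: 1756 in place of 3888 within icals3m, of which 1649 were among the 3888, 1256 in place of 2840 relative to Col-0, 501 in place of 1417 in Col-0, 717 in place of 2009 against 24 h, 747 in place of 2170 against 72 h, and 797 in place of 1881 in both 48 h tests. The cause was not tested. In that matrix AT2G10940 was at 0.28 within icals3m and 3.30 relative to Col-0, PSBQ1 at 0.55 and 0.44, CALS9 at -0.03 and FKBP62 at -0.31 within icals3m, and P5CSB at -0.11 relative to Col-0, each with the opposite sign and none past the threshold. Of 126 named values within icals3m it kept 85 and lost 37. With only the libraries compared in the fit, 1875 genes passed relative to Col-0 and 171 in Col-0. Without Col-0 DMSO replicates 1 and 3, these were 777 and 1, and 702 passed both 48 h tests. Leaving out single libraries gave 2927 to 3355 genes within icals3m, 1889 (without icals3m estradiol replicate 3) to 3284 relative to Col-0, 1316 to 2011 in both, and 309 (without Col-0 DMSO replicate 3) to 2474 (without Col-0 DMSO replicate 2) in Col-0. In Col-0 every such fit moved the count by over 1.5 times. Against 24 h the range was 1350 to 2198 and against 72 h 1482 to 2358. CALS3 kept its call, at 4.0 to 4.39 within icals3m and 4.05 to 4.47 relative to Col-0. DESeq2, its size factors, no filter and counts divided by 4 kept every count over all genes within 1.5 times. Same-numbered replicates did not deviate together, with correlations of 0.00, 0.01 and -0.00 in icals3m and 0.07, 0.04 and -0.01 in Col-0, and 0 icals3m and 2 Col-0 libraries correlated best with their own number. The replicate block gave 3782 genes within icals3m, 2636 relative to Col-0, 1041 in Col-0, 1876 against 24 h, 2121 against 72 h and 1811 in both, with CALS3 at 4.31. At these depths, genes near 3 counts in a library have loosely fixed fold changes.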
